A study of Mus musculus with 8 samples.

Results

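The genes described here are 41 genes of colon epithelium, covering cell adhesion, tight junctions, desmosomes, keratins, the brush border, the absorptive and surface programme of enterocytes, membrane-bound protease systems and the transcription and splicing factors of these cells. They were taken from a list of names, and each was read from 1 probe set annotated to that gene alone, the brightest on average where there were several. The list was chosen with earlier results of these data known. Shares of all genes set beside its counts below are therefore descriptions and no independent test. All 41 were measured, among 18194 genes with a probe set of their own. The cells measured were not epithelial by design. They were CD11b+Gr-1+ myeloid cells, which are immature granulocytes and monocytes. The sample titles call them myeloid-derived suppressor cells, in bone marrow as in tumor.

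Colon epithelium is a sheet of cells joined by tight junctions, adherens junctions and desmosomes, whose keratin filaments run from one desmosome to the next. Claudins and occludin form the seal of the tight junction, and E-cadherin, encoded by Cdh1, holds neighbouring cells together below it. The free surface of an absorptive cell carries microvilli, bundled by villin and linked at their tips by the protocadherins Cdhr2 and Cdhr5, and the genes of this surface are switched on by Cdx1, Cdx2 and Hnf4a as cells leave the crypt.

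RNA from 4 groups was hybridised to 8 Affymetrix arrays, 2 technical arrays per group. The WT bone marrow group came from 3 HDC-EGFP mice and the HDC-KO bone marrow group from 3 HDC-EGFP/HDC-KO mice, all aged 3 to 4 months, and these marrow cells are described as HDC-expressing. The WT tumor and HDC-KO tumor groups each came from colon tumors of 5 mice aged 7 months, of the same genotypes respectively, after azoxymethane, a carcinogen, followed by dextran sodium sulfate, an agent of colitis. All groups were C57BL/6J mice with the HDC-EGFP reporter transgene, HDC being histidine decarboxylase, the enzyme that makes histamine. HDC-KO mice lack it throughout the body. The labels place the tumor cells in the stroma of the tumors and give no EGFP gate for them, and they state that red blood cells were lysed in the marrow preparations. Tumor and marrow therefore also differed in age, treatment and sort. Cells of several mice were pooled for the tumor groups, so each group was 1 pool here, and every adjusted p below measures a difference only against the spread between technical arrays of a pool, not between mice.

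Some of the sequences before these genes are shown first, because 40 of the 41 genes read higher on both arrays of one tumor pool than on those of the other, and the factors Cdx1, Cdx2, Hnf4a and Elf3 are among them. RefSeq gene starts of GRCm38.p6 were matched for 33 of the 41 genes, and the 250 bases before each start were searched on both strands for a caudal (Cdx) core, CATAAA or TTTATG, an Hnf4 half-site pair, CAAAGNNCA or TGNNCTTTG, and an Ets core, AGGAAG or CTTCCT. A caudal core was held by 2 of the 33 genes (6.06%) and by 12.42% of 27025 genes. An Hnf4 pair was held by 3 (9.09%) against 6.29% of all genes, and an Ets core by 14 (42.42%) against 32.32%. The letters TATAAA or TTTATA, which can overlap a caudal core, were held by 2 (6.06%) against 14.33%. These shares are descriptions of letters in a short window. The 5 genes with a caudal or Hnf4 match are printed below with Cldn15, the gene that moved the other way. Cldn15 held none of the first 3 motifs, but neither did several genes that read higher, among them Car4, Cldn3 and Lypd8. Matches are in capitals, and each run is written 5′ to 3′ on the gene's strand and ends at the base before the start. Epcam (chr17:87635729-87635978, plus strand) holds CATAAA at -28, and Cdhr5 (chr7:141276787-141277036, minus strand) holds it at -39 with an Ets core at -131. Slc26a3 (chr12:31437969-31438218, plus strand) holds an Hnf4 pair at -136, Fabp2 (chr3:122894822-122895071, plus strand) at -137, and 1 of the starts of Tjp3 (chr10:81291582-81291831, minus strand) at -178, where 2 Ets cores lie close by. Cldn15 is at chr5:136967619-136967868, plus strand.
Epcam: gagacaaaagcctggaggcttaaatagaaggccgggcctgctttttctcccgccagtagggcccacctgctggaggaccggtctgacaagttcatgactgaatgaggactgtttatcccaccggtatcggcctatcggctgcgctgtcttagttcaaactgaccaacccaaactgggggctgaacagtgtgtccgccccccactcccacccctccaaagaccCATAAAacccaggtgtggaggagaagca
Cdhr5: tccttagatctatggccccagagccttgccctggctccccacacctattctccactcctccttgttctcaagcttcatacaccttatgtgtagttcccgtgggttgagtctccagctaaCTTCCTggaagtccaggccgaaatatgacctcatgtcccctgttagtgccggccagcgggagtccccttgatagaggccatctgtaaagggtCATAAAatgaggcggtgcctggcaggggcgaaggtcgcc
Slc26a3: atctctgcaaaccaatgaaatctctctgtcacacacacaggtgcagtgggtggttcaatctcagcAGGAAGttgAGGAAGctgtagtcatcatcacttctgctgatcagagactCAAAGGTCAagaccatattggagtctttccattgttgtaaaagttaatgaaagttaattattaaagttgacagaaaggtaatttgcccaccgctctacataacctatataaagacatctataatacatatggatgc
Fabp2: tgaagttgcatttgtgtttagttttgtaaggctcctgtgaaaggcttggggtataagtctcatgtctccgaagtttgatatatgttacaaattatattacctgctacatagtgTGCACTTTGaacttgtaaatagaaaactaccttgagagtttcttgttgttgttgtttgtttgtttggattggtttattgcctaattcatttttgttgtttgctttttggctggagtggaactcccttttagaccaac
Tjp3: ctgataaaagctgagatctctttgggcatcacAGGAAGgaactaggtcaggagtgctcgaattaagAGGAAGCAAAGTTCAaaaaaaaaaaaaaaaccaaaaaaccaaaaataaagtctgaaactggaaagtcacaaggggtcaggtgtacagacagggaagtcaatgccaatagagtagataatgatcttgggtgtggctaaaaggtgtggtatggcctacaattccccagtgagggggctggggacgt
Cldn15: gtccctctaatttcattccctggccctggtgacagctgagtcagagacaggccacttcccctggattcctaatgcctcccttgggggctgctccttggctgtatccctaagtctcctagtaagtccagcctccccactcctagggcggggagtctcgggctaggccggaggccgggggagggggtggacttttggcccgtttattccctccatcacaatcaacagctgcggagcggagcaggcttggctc

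The values are log2 GCRMA expression values, and a value under log2 5 is treated here as background. On each array 30.3% to 31.8% of 45101 probe sets reached log2 5. The targeted gene was checked first. Hdc stood at 13.14 and 13.21 on the WT bone marrow arrays and at 9.79 and 9.87 on the HDC-KO bone marrow arrays. It stood at 13.25 and 13.23 on the WT tumor arrays and at 13.02 and 13.03 on the arrays labelled HDC-KO tumor, a log2 difference of -0.21 ± 0.05 (SE, limma, adjusted p = 0.013) that was under the 2-fold threshold. That level went against the label, so the group is called the KO-labelled tumor pool from here on, and every direction between the tumor pools rests on its label. The sorted cell type was checked by 9 myeloid genes, among them Itgam, which encodes CD11b, S100a8, S100a9 and Csf3r. All 9 were above background in all 4 pools, and their mean level per array ran from 12.83 to 13.59. Ly6g, Ly6c1 and Ly6c2 were not analysed here.

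Across the 8 arrays the 41 genes formed 3 tiers. Their mean level was 3.26 to 3.30 on the WT bone marrow arrays, 3.34 to 3.36 on the HDC-KO bone marrow arrays, 6.44 to 6.5 on the WT tumor arrays and 9.35 to 9.41 on the KO-labelled tumor arrays. In both marrow pools 36 of the 41 were under background, whereas 23 were above it in the WT tumor pool and 40 in the KO-labelled tumor pool. For 36 genes every marrow array was below both WT tumor arrays, and both of those were below both KO-labelled tumor arrays. The exceptions were Cldn15, Tjp3, Dsp, Cdx2 and Ceacam1. Both KO-labelled tumor arrays lay above the other 6 arrays for 40 of 41 genes, all but Cldn15, and the same was true of 35.8% of the 8174 tested genes. For 16 of the 40, every array of the other 3 pools was under background, as for 500 of the 8174. Such a gene could be tested only with both KO-labelled arrays above background, which gives this order by construction. Nothing is read from the order of those genes. All 4 tumor arrays lay above all 4 marrow arrays for 36 of the 41, against 24.9% of tested genes. The counts of 40 and 36 also hold Cdx1, which was not tested, while both shares cover tested genes only. However, 18 of the 41 were under background in WT tumor as well as in marrow. For those a step from marrow to WT tumor lies within background and is not read as an order. In pools of cells, more cells that carry an RNA and more RNA per cell cannot be told apart.

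**Figure D1:**
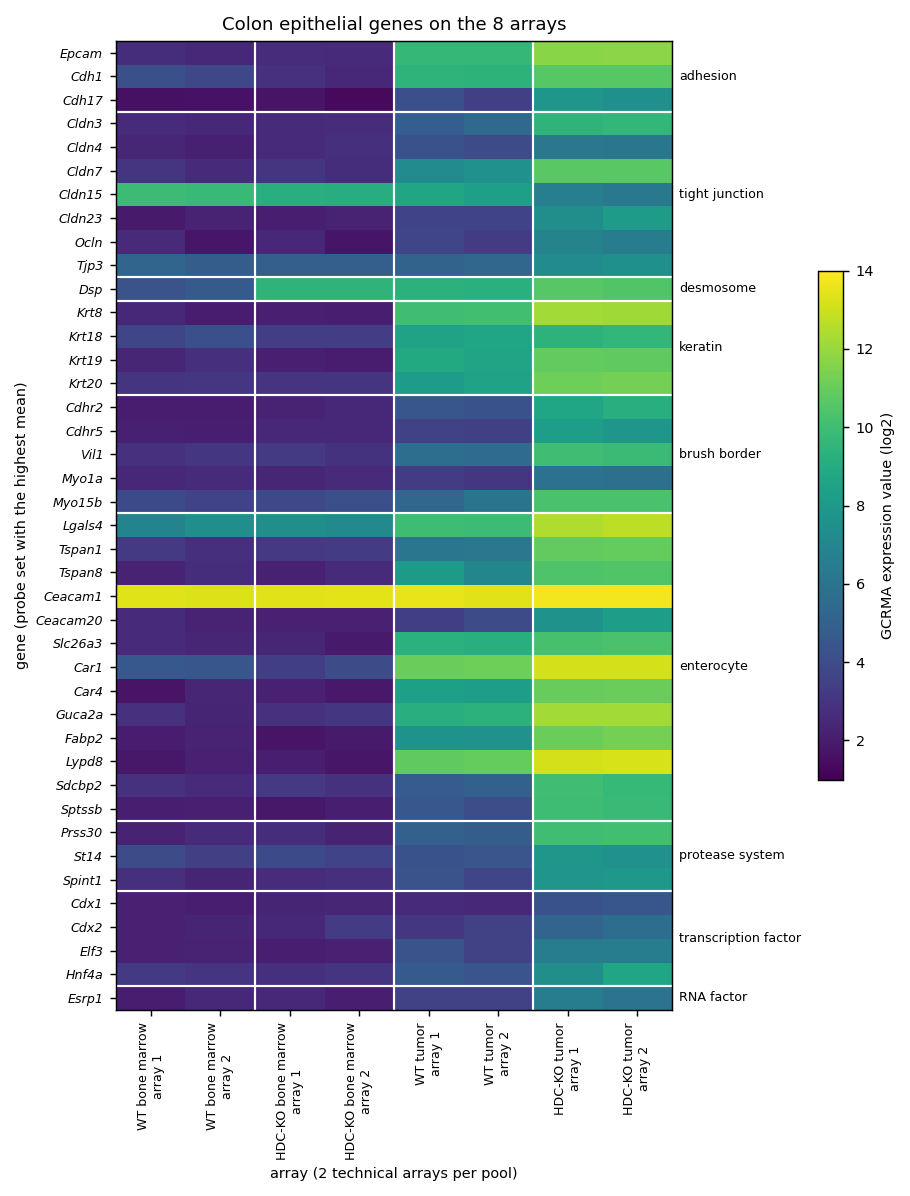
Log2 GCRMA expression value (colour, scale at the right) of the 41 genes (rows, grouped by role) on the 8 arrays (columns, 2 technical arrays per pool, with the fourth pair labelled HDC-KO tumor). Most rows are dark on the marrow arrays, intermediate in WT tumor and brightest in the fourth pair, while Cldn15 runs the other way, Dsp is dark only in WT bone marrow and Ceacam1 is bright on every array.

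The first comparison set the KO-labelled tumor pool against the WT tumor pool. By its labels it asks how loss of Hdc relates to expression in tumor myeloid cells. Hdc stood near its WT level in the KO-labelled pool, as given above, so that question cannot be answered here. A gene was called when its Benjamini-Hochberg adjusted p in limma was under 0.05 and its difference at least 2-fold, and every gene but Cdx1 reached log2 5 on enough arrays (2 or more) to be tested, which left 40. Of the 40, 37 were called higher in the KO-labelled tumor pool, where 15.5% of all tested genes were, and Cldn15 was called lower, where 10.5% were. In either direction 38 were called, against 26% of all tested genes. Krt18 and Ceacam1 were not called. The median log2 difference was 2.93 over the 40, or 2.71 with values raised to log2 5, and 0.03 over all tested genes. For 16 of the 40 no array outside the KO-labelled tumor pool reached log2 5, so these genes could enter the test only by being high there. They were Cdh17, Cldn4, Cldn23, Ocln, Cdhr2, Cdhr5, Myo1a, Sptssb, Ceacam20, Prss30, St14, Spint1, Hnf4a, Elf3, Cdx2 and Esrp1. Of the 24 that had reached log2 5 elsewhere, 21 were called higher, Cldn15 lower, and Krt18 and Ceacam1 were not called. Among all tested genes with at least 1 such array, 826 of 7674 (10.8%) were called higher. Both counts still hold genes with only 1 array at log2 5 elsewhere, which also needed the KO-labelled pool to be tested. Cldn3 and Sdcbp2 are such genes among the 24. The standard error of a difference ran from 0.06 to 0.39 with a median of 0.16. Marker lists of goblet cells, T and NK cells and B and plasma cells, given further on, were also higher in the KO-labelled tumor pool, and their part in these differences was not tested.

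**Figure D2:**
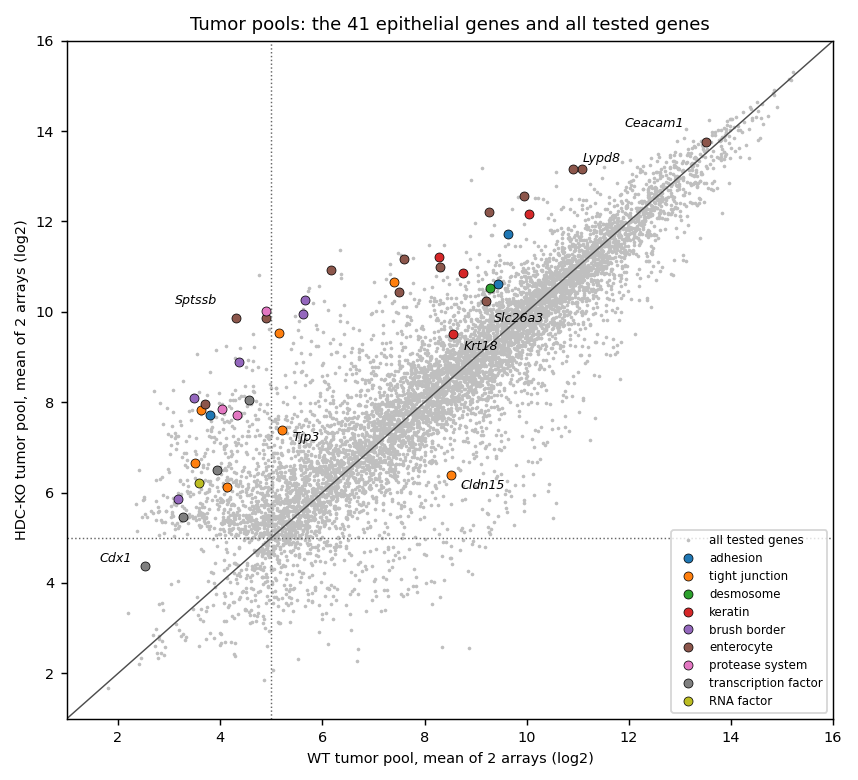
Mean log2 value in the KO-labelled tumor pool (vertical axis) against the WT tumor pool (horizontal axis), each over 2 technical arrays, for all tested genes (grey) and the 41 genes (coloured by role). The diagonal is equality and dotted lines mark log2 5. Cldn15 lies below the diagonal, and Ceacam1, Krt18 and Slc26a3 lie nearest above it.

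The 3 adhesion genes rose in the KO-labelled tumor pool. Epcam, a surface glycoprotein found on nearly all simple epithelia, stood at 2.71 and 2.47 in WT bone marrow, 2.63 and 2.60 in HDC-KO bone marrow, 9.65 and 9.64 in WT tumor and 11.70 and 11.75 in KO-labelled tumor. The tumor pools did not overlap, and Epcam was 4.23-fold higher in the KO-labelled one (log2 difference 2.08 ± 0.08, SE, limma, adjusted p = 4.1e-06). Cdh1, which encodes E-cadherin, stood at 4.15 and 3.82, then 2.85 and 2.43, then 9.45 and 9.41, and then 10.63 and 10.60 in the same order of pools. It was high in both tumor pools, and its tumor difference of 1.18 ± 0.16 was the smallest of the 3 (2.27-fold, limma, adjusted p = 0.00077). Cdh17, an intestinal cadherin, was under background on the WT tumor arrays at 4.15 and 3.46 and reached 7.90 and 7.54 on the KO-labelled arrays. That is at least 6.6-fold higher, the WT mean being raised to log2 5 for this bound, as for every fold written with "at least" below. Cdh17 was tested only by being high in the KO-labelled pool, and nothing is read from its call.

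Of the 7 tight junction genes, 6 were called higher and Cldn15 lower. Cldn3, a sealing claudin, stood at 4.87 and 5.44 on the WT tumor arrays and at 9.44 and 9.63 on the KO-labelled arrays, after 2.50 to 2.64 on the 4 marrow arrays. It was 20.8-fold higher (log2 difference 4.38 ± 0.18, limma, adjusted p = 4.3e-06). Cldn7, which also lies along the sides of colon cells, stood at 7.25 and 7.57 and then at 10.65 and 10.67, and was 9.53-fold higher. Both claudins were clear of overlap between the tumor pools. Cldn23 was at least 7.06-fold higher, its KO-labelled arrays reading 7.44 and 8.20, and Cldn4 at least 2.20-fold higher at 6.17 and 6.10. Ocln, which encodes occludin, was at least 3.14-fold higher. Each of these 3 was under background in the other 3 pools, so it was tested only by being high in the KO-labelled pool. Tjp3, which encodes the scaffold protein ZO-3, stood between 4.82 and 5.30 on the other 6 arrays and at 7.27 and 7.52 on the KO-labelled arrays, a 4.54-fold difference (log2 2.18 ± 0.15, limma, adjusted p = 4e-05). The WT tumor arrays of Tjp3 overlapped its marrow arrays, unlike those of the claudins just named.

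Cldn15, which forms cation pores in intestinal tight junctions, ran in the opposite direction. It stood at 9.90 and 9.82 in WT bone marrow, 9.13 and 9.09 in HDC-KO bone marrow, 8.69 and 8.32 in WT tumor and 6.58 and 6.19 in KO-labelled tumor. No pool overlapped the next, and all 8 arrays were above background. The KO-labelled tumor pool was 4.35-fold lower than the WT tumor pool (log2 difference -2.12 ± 0.16, limma, adjusted p = 5.5e-05). Cldn3, Cldn4, Cldn7 and Cldn23, by contrast, were under background on all 4 marrow arrays.

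Dsp encodes desmoplakin, which ties desmosomes to keratin filaments. It stood at 4.35 and 4.68 in WT bone marrow, 9.48 and 9.47 in HDC-KO bone marrow, 9.35 and 9.24 in WT tumor and 10.61 and 10.46 in KO-labelled tumor. Only the WT bone marrow pool was under background. Between the tumor pools Dsp was 2.36-fold higher in the KO-labelled one (log2 difference 1.24 ± 0.12, limma, adjusted p = 0.00014), and averaged over its probe sets the difference was 0.88 and was not called.

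The 4 keratins are those of simple epithelia. Krt8 stood at 10.02 and 10.07 on the WT tumor arrays and at 12.18 and 12.17 on the KO-labelled arrays, after 2.02 to 2.50 on the marrow arrays. It was 4.37-fold higher (log2 difference 2.13 ± 0.15, limma, adjusted p = 3.4e-05). Krt18, the usual filament partner of Krt8, stood at 8.48 and 8.65 and then at 9.40 and 9.60. The arrays of Krt18 did not overlap, but its 1.92-fold difference (log2 0.94 ± 0.16, limma, adjusted p = 0.0019) missed the 2-fold threshold. It was called at 1.02 without WT tumor array 2 and at 1.04 without KO-labelled tumor array 1. Krt19 was 4.32-fold higher and Krt20, a keratin of differentiated surface cells, 7.55-fold higher, with Krt20 at 8.11 and 8.48 and then at 11.11 and 11.30. Thus all 4 keratins read higher in the KO-labelled tumor pool, and 3 of them were called.

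All 5 brush border genes were called higher, though Cdhr2, Cdhr5 and Myo1a were tested only by being high in the KO-labelled tumor pool. Vil1, which encodes villin, the actin-bundling protein of microvilli, stood at 2.87 and 3.08 in WT bone marrow, 3.20 and 2.89 in HDC-KO bone marrow, 5.68 and 5.55 in WT tumor and 10.03 and 9.86 in KO-labelled tumor. It was 20.1-fold higher in the KO-labelled tumor pool (log2 difference 4.33 ± 0.13, limma, adjusted p = 1.6e-06). The protocadherins of the microvillar tips were at background in WT tumor. Cdhr2 read 4.47 and 4.25 there and 8.66 and 9.13 on the KO-labelled arrays, at least 14.9-fold higher. Cdhr5, whose promoter window is printed above, read 3.53 and 3.45 and then 8.31 and 7.89, at least 8.58-fold higher. Myo15b, a myosin gene, was 24.3-fold higher, from 5.29 and 6.04 to 10.28 and 10.25. Myo1a, the brush border myosin I, reached only 5.90 and 5.79 and was at least 1.80-fold higher, and with values raised to log2 5 its difference was 0.85 and was not called.

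Of the 13 enterocyte genes, 12 were called higher, though Sptssb and Ceacam20 were tested only by being high in the KO-labelled tumor pool. Lypd8, a surface protein that keeps flagellated bacteria away from colon epithelium, stood at 1.83 and 2.18 in WT bone marrow, 2.10 and 1.79 in HDC-KO bone marrow, 10.85 and 10.95 in WT tumor and 13.15 and 13.19 in KO-labelled tumor, a 4.84-fold tumor difference (log2 2.27 ± 0.15, limma, adjusted p = 2.6e-05). Car1, a cytosolic carbonic anhydrase, stood at 11.03 and 11.13 and then at 13.15 and 13.18, 4.24-fold higher. These were genes already high in the WT tumor pool. Car4, the membrane-anchored carbonic anhydrase, was 6.48-fold higher and Guca2a, the peptide ligand guanylin, 7.76-fold higher, the latter from 9.16 and 9.36 to 12.21 and 12.22. Fabp2, the intestinal fatty acid binding protein, was 11.9-fold higher, from 7.64 and 7.56 to 11.09 and 11.26 (log2 difference 3.58 ± 0.12, limma, adjusted p = 2.1e-06). Slc26a3, the chloride-bicarbonate exchanger of the colon surface, moved least of the called genes that were above background in both tumor pools. It stood at 9.28 and 9.15 and then at 10.20 and 10.26, a log2 difference of 1.02 ± 0.16 (2.02-fold, limma, adjusted p = 0.0014). Its call was lost at 0.95 without WT tumor array 2, at 0.99 without KO-labelled tumor array 2, at 0.96 with median centring and at 0.95 averaged over its probe sets. Fabp2 and Slc26a3 both hold an Hnf4 pair in the windows printed above, and their tumor differences lay toward opposite ends of the range for genes high in both tumor pools.

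Of the other surface and lipid genes of enterocytes, all but Ceacam1 were called higher. Lgals4, which encodes galectin-4, stood at 6.88 and 7.36 in WT bone marrow, 7.41 and 7.23 in HDC-KO bone marrow, 9.98 and 9.91 in WT tumor and 12.47 and 12.68 in KO-labelled tumor, 6.18-fold higher between the tumor pools. It was above background in all 4 pools. The tetraspanin Tspan1 was 27.0-fold higher, from 6.09 and 6.23 to 10.90 and 10.93 (log2 difference 4.76 ± 0.14, limma, adjusted p = 1.5e-06), and Tspan8 was 7.67-fold higher, from 8.07 and 6.96 to 10.43 and 10.47. The WT tumor arrays of Tspan8 differed by more than a log2 unit. Sptssb, a small subunit of serine palmitoyltransferase, which begins sphingolipid synthesis, stood at 4.52 and 4.10 and then at 9.94 and 9.79, at least 29.2-fold higher (log2 difference 5.55 ± 0.16, limma, adjusted p = 1.3e-06). Sdcbp2, which encodes syntenin-2, was also at least 29.2-fold higher, from 4.76 and 5.03 to 10.01 and 9.72. Ceacam20, a brush border membrane protein, was at least 7.82-fold higher. Ceacam1, an adhesion molecule of epithelia that granulocytes also carry, read 13.36 and 13.32, then 13.41 and 13.45, then 13.59 and 13.44, and then 13.75 and 13.76. Its tumor difference of 0.24 ± 0.06 (1.18-fold, limma, adjusted p = 0.014) was under the threshold, and its level was high in every pool.

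The protease genes St14, which encodes the membrane serine protease matriptase, and Spint1, which encodes its inhibitor HAI-1, rose together with the serine protease gene Prss30. Prss30 stood at 4.97 and 4.83 on the WT tumor arrays and at 9.99 and 10.04 on the KO-labelled arrays, at least 32.3-fold higher (log2 difference 5.11 ± 0.16, limma, adjusted p = 1.6e-06). St14 read 4.25 and 4.41 and then 7.86 and 7.58, at least 6.6-fold higher, and Spint1 read 4.32 and 3.74 and then 7.76 and 7.93, at least 7.19-fold higher. All 3 were under background in the WT tumor pool and in both marrow pools. They were tested only by being high in the KO-labelled pool, and nothing is read from their being called together.

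Of the transcription factors, Hnf4a, a nuclear receptor that drives enterocyte genes, stood at 4.70 and 4.41 in WT tumor and at 7.40 and 8.71 in KO-labelled tumor, at least 8.30-fold higher (log2 difference 3.5 ± 0.39, limma, adjusted p = 0.00031). Its KO-labelled arrays differed by more than those of any other gene of the 41, with an SD of 0.92. Elf3, an epithelial Ets factor, read 4.32 and 3.53 and then 6.5 on both arrays, at least 2.83-fold higher. The caudal factors were near or under background on every array. Cdx2 read 3.05 and 3.51 and then 5.25 and 5.69, at least 1.38-fold higher, and its log2 difference of 2.19 ± 0.28 (limma, adjusted p = 0.00055) fell to 0.47 and was not called with values raised to log2 5. Cdx1 stayed under background on all 8 arrays, at 2.55 and 2.52 in WT tumor and 4.28 and 4.46 in KO-labelled tumor, and was not tested. Esrp1, which sets the epithelial pattern of splicing, read 3.58 on both WT tumor arrays and 6.47 and 5.95 on the KO-labelled arrays, at least 2.31-fold higher. Hnf4a, Elf3, Cdx2 and Esrp1 were tested only by being high in the KO-labelled pool, and nothing is read from their calls.

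The WT tumor level decided which of these differences were measured on both sides. The 18 genes at or above log2 7 in WT tumor could have been tested whatever their level in the KO-labelled pool. Their median difference was 2.12, with 15 called higher and 1 lower, against 379 higher and 643 lower of the 5561 tested genes at that level. The 5 genes between log2 5 and 7, which were Cldn3, Tjp3, Vil1, Myo15b and Tspan1, had a median of 4.38, and all 5 were called higher against 368 of 1743. Of these, Cldn3 reached log2 5 on only 1 array outside the KO-labelled pool, so its test needed that pool. Of the 17 tested genes under log2 5 in WT tumor, 16 entered the test through the KO-labelled pool alone, and Sdcbp2 also needed an array of that pool. Nothing is read from the calls of these 17 or from the size of their differences.

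The second comparison set HDC-KO bone marrow against WT bone marrow, and asks how loss of Hdc relates to expression in marrow cells, where Hdc was lower. Dsp was called higher, where 1.8% of all tested genes were, and Cdh1 lower, where 2.02% were. In either direction 2 of the 40 were called, against 3.82%. The median difference of the 40 was 0.00. Dsp rose at least 22.3-fold (log2 difference 4.96 ± 0.12, limma, adjusted p = 3.9e-06), from the 4.35 and 4.68 to the 9.48 and 9.47 given above. Cdh1 differed by -1.35 ± 0.16 (limma, adjusted p = 0.0028) with both pools under background, so no fold is given, and its difference was 0.00 with values raised to log2 5. Among the genes above background in both marrow pools, Lgals4 differed by 0.20 ± 0.17 (limma, adjusted p = 0.45) and Ceacam1 by 0.09 ± 0.06 (adjusted p = 0.37). Cldn15 differed by -0.75 ± 0.16 (limma, adjusted p = 0.023), 1.68-fold, and was under the threshold. Car1 differed by -0.86 ± 0.17 (limma, adjusted p = 0.017) under background, and was called at -1.14 without HDC-KO bone marrow array 2. The keratin, brush border, enterocyte, protease and transcription factor genes gave no call in this comparison.

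The third comparison set WT tumor against WT bone marrow cells. Of the 40 tested genes, 35 were called higher in tumor, where 11.6% of all tested genes were, and Cldn15 was called lower, where 4.81% were. In either direction 36 were called, against 16.4%. Tjp3, Ceacam1, Myo1a and St14 were not called. The median difference was 2.40, against -0.03 over all tested genes. With values raised to log2 5, 18 were called, 17 of them higher, and the median was 0.20, since most of these genes were under background in marrow and 18 of the 41 also in WT tumor. The genes with the largest bounds were Car1 at least 67.8-fold higher, Lypd8 at least 59.7-fold, Krt8 at least 33.1-fold and Epcam at least 25-fold. Cdh1 and Dsp, from the junctions, were at least 21.6-fold and at least 19.6-fold higher, and Guca2a and Slc26a3 at least 19.2-fold and at least 18.6-fold. Krt19 and Krt18 were at least 13.4-fold and 11.8-fold higher, and Lgals4, measured in both pools, was 7.09-fold higher (log2 difference 2.83 ± 0.17, limma, adjusted p = 3.2e-05). Cldn15 was 2.56-fold lower in tumor (log2 difference -1.36 ± 0.16, limma, adjusted p = 0.00074). All 4 keratins, Epcam, Cdh1, Dsp and most enterocyte genes were above background in the WT tumor pool, while Cdx1, Cdx2, Elf3, Hnf4a, Esrp1 and the 3 protease genes were under it.

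The fourth comparison set the KO-labelled tumor pool against HDC-KO bone marrow, and shares its tumor arrays with the first comparison. Of the 40 genes, 38 were called higher, where 21.1% of all tested genes were, and Cldn15 lower, where 15.4% were. In either direction 39 were called, against 36.5%, and Ceacam1 was not called (0.32 ± 0.06, limma, adjusted p = 0.0035). The median difference was 6.41. These counts hold the 16 genes that were tested only by being high in the KO-labelled tumor pool. They also hold Cldn3 and Sdcbp2, whose test needed an array of that pool. Nothing is read from the calls of any of these genes. Lypd8 was at least 289-fold higher and Car1 at least 287-fold, followed by Guca2a at least 149-fold, Krt8 at least 144-fold and Epcam at least 106-fold. Krt20 and Fabp2 were at least 73.9-fold and 72.2-fold higher, and Lgals4 was 38.1-fold higher. Cldn15 was 6.61-fold lower (log2 difference -2.73 ± 0.16, limma, adjusted p = 1e-05). Dsp, already high in HDC-KO bone marrow, was 2.08-fold higher (log2 difference 1.06 ± 0.12, limma, adjusted p = 0.0002), and its call was lost at 0.98 without KO-labelled tumor array 1, at 0.93 with median centring and at 0.77 averaged over its probe sets.

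The difference between the genotype labels was compared between the tissues by an interaction term, which shares its arrays with the comparisons above. It was called for 39 of the 40 genes, against 28.5% of all tested genes. The difference was larger in tumor for 37, where 16.8% were, and smaller for Cldn15 and Dsp, where 11.7% were. For Sptssb, the tumor difference exceeded the marrow difference by 5.72 ± 0.22 (limma, adjusted p = 7.8e-06), and for Prss30 by 5.05 ± 0.22 (adjusted p = 1.1e-05). Both are among the 16 genes tested only by being high in the KO-labelled tumor pool. That filter favoured a larger tumor difference, so nothing is read from the calls or sizes of those 16. The same holds for Cldn3 and Sdcbp2, whose test also needed an array of that pool. Dsp had its large genotype difference in marrow, and the interaction was -3.73 ± 0.17 (limma, adjusted p = 1.1e-05). Cldn15 was called lower in tumor and not called in marrow, with an interaction of -1.37 ± 0.23 (limma, adjusted p = 0.0025). Ceacam1 gave 0.15 ± 0.09 (limma, adjusted p = 0.19). With values raised to log2 5 the interaction was called for 36 genes and no longer for Cdx2, at 0.47, Myo1a, at 0.85, or Krt18, at 0.94.

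**Figure D3:**
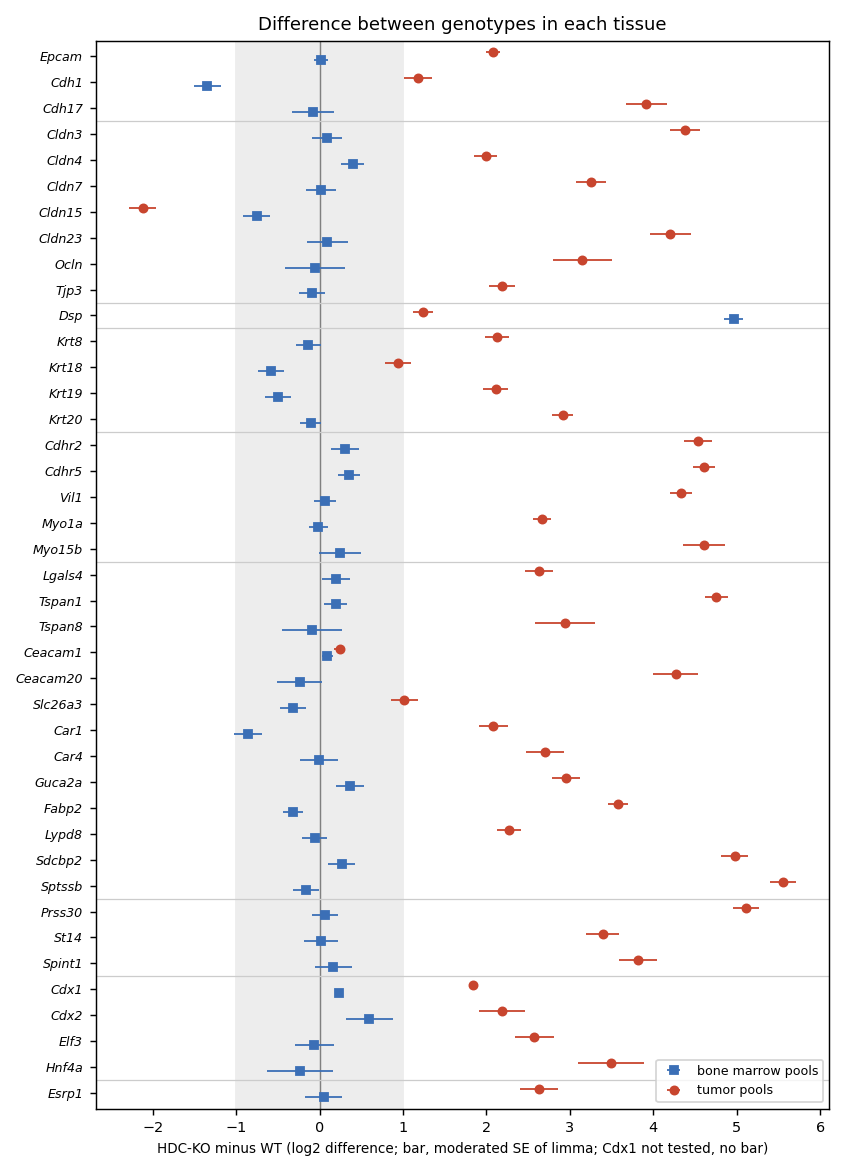
Log2 difference of HDC-KO minus WT for each gene (rows) in bone marrow (blue squares) and between the tumor pools (red circles), with bars for limma's moderated SE. Shading marks differences under 2-fold. Marrow points lie within the shading except Dsp and Cdh1, and tumor points lie right of it except Krt18, Ceacam1 and Cldn15.

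Other probe sets of the same genes were read to see whether they moved alike. The 41 genes had 72 probe sets of their own, and 14 genes had more than 1. Of the 31 probe sets not kept, 20 passed the filter, of which 14 were called higher in the KO-labelled tumor pool, 0 lower and 6 were not called, while 11 were not tested. The 6 not called all belonged to Ceacam1, whose 7 tested probe sets differed by 0.24 to 0.66. Those of Cldn3 gave 2.97 to 3.35 beside 4.38 for the kept one, and those of Krt8 gave 1.93 and 1.97 beside 2.13. Slc26a3, called by a small margin, was called at 1.27 and 1.60 by its other tested probe sets. The marrow difference of Dsp was seen again in a separate probe set, which went from 5.08 in WT bone marrow to 8.98 in HDC-KO bone marrow and differed by 1.38 between the tumor pools. Hnf4a had another called probe set at 4.02 and 2 at background on which it differed by 0.66 and -0.02, and the 4 other probe sets of Tspan8 were also at background. The other probe set of Cdx2 was at background in every pool and differed by 0.24 between the tumor pools.

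**Figure D4:**
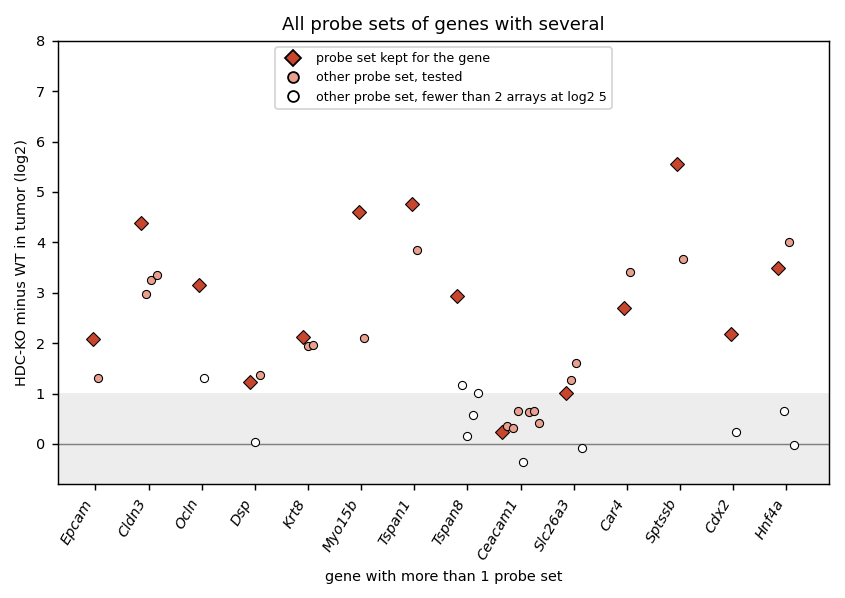
Log2 difference between the tumor pools (HDC-KO label minus WT) for every probe set of the 14 genes with more than 1. Diamonds are the kept probe sets, filled circles other tested ones and open circles those with fewer than 2 arrays at log2 5. Filled points of 13 genes lie above the shaded zone of under 2-fold, and those of Ceacam1 lie inside it.

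Related epithelial genes outside the 41 were counted from named lists in the same tumor comparison. Of all tested genes, 15.5% were called higher in it and 10.5% lower. A listed gene that reached log2 5 only in the KO-labelled pool was tested by being high there. Nothing is read from the higher call of such a gene. Of 28 other claudin and tight junction genes measured, 5 were tested. Tjp1, which encodes ZO-1, F11r and Crb3 were called higher, with Tjp1 4.66-fold higher from 5.61 and 5.56 to 8.06 and 7.56, and Cldn12 was not called (0.22 ± 0.18, limma, adjusted p = 0.32). Cldn1 was 8.41-fold lower, from 9.50 and 9.49 to 6.74 and 6.10 (log2 difference -3.07 ± 0.19, limma, adjusted p = 2.2e-05). Like Cldn15, Cldn1 was above background in all 4 pools. Of 23 other adherens junction and desmosome genes, 9 were tested and 6 called higher, led by Dsg2, the desmosomal cadherin desmoglein-2, at 5.74-fold, Pkp4 at 3.86-fold and Dsc2 at least 3.65-fold. Of 17 other keratins, 3 were tested, of which Krt7 was at least 2.95-fold and Krt80 at least 1.47-fold higher, and Krt42 was not called (-0.80 ± 0.13, limma, adjusted p = 0.0019). With values raised to log2 5 the calls of Krt80, at 0.56, and F11r, at 0.79, were lost. Of the 17 other keratins, 1 was above background in the WT tumor pool and 3 in the KO-labelled pool.

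Of 20 other brush border genes, 13 were tested and 10 called higher. Sult1b1, a sulfotransferase, was at least 13.2-fold higher, Mep1b, a meprin metalloprotease of the microvillar membrane, at least 12.8-fold and Myo5b, a motor of apical trafficking, at least 9.54-fold. Of 29 other colonocyte transport and absorptive genes, 20 were tested and 16 called higher. Cyp2c55 was 16-fold higher, from 8.87 and 8.97 to 12.93 and 12.91, the mucin gene Muc13 10.7-fold and the amino acid transporter gene Slc6a14 8.67-fold. Of 26 other epithelial transcription and splicing factors, 9 were tested and 7 called higher, led by Vdr, the vitamin D receptor, at least 6.49-fold, Tcf7l2 at 4.94-fold and Nr1h4, the bile acid receptor FXR, at least 4.30-fold. Of 13 other protease and inhibitor genes, 8 were tested. Prss23, Tmprss4 and Klk1 led 5 that were called higher, at least 10.2-fold, at least 4.29-fold and 4.22-fold, though Klk1 averaged over its probe sets differed by 0.90 and was not called. Serpinb1a, a neutrophil elastase inhibitor, was 3.38-fold lower. None of the tested members of the brush border, absorptive and transcription factor lists was called lower. Genes tested only by being high in the KO-labelled tumor pool could not have been, and nothing is read from their higher calls. Of the 20 other brush border genes, 3 were above background in the WT tumor pool and 13 in the KO-labelled pool.

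Markers of other cells of a colon tumor or marrow sort moved between the tumor pools as well, and their part in the results above was not tested. The share of all tested genes was again 15.5% called higher and 10.5% lower. The limit on genes tested only by being high in the KO-labelled pool holds for these lists too, and for the other lineages below. All 8 tested goblet cell genes of 14 measured were called higher, with Tff3 14.2-fold, Clca1 11.2-fold and Muc2 10.4-fold higher, and the list's mean level was 2.63 to 2.71 on the marrow arrays, 4.86 to 4.90 on the WT tumor arrays and 6.87 to 6.94 on the KO-labelled arrays. Chgb, the only tested enteroendocrine gene of 14 measured, was 5.90-fold higher. No tuft cell gene of 10 and no endothelial gene of 12 was tested, and their list means lay between 2.40 and 2.69 in every pool. Of the crypt base genes, 5 of 12 were tested, and Ascl2 (-1.08 ± 0.33, limma, adjusted p = 0.024, both pools under background) and Prom1 (-1.0 ± 0.05, adjusted p = 9.2e-06) were called lower. Ascl2 was not called at -0.84 without WT tumor array 1 or at -0.65 without KO-labelled tumor array 1, and Prom1 was not called at -0.97 without KO-labelled tumor array 2 or at -0.96 with quantile normalization. Of 3 tested small intestinal genes of 13, Slc5a1 was called higher, at least 1.61-fold, and Lct lower, from 4.86 and 5.22 to 2.01 and 2.14. Neither was called with values raised to log2 5, at 0.68 and -0.11, nor was Ascl2, at 0.00.

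Among other lineages, Postn was at least 9.2-fold higher and Acta2 was not called, these being the 2 tested of 12 fibroblast genes. Of 4 tested erythroid genes of 8, Slc4a1 was 5.07-fold, Alas2 at least 1.51-fold and Car2, which the absorptive list also holds, 3.13-fold higher, and Alas2 was not called with values raised to log2 5, at 0.59. Of 8 tested T and NK cell genes of 13, 5 were called higher, with Gzma 11.3-fold and Cd2 at least 3.36-fold higher, and Cd3d was 3.38-fold lower. Of 8 tested B and plasma cell genes of 10, 4 were called higher, with Cd79b 14.2-fold, Ms4a1 8.34-fold, Blnk 4.91-fold and Mzb1 3.00-fold. The mean level of the T and NK cell list was 4.66 to 4.70 on the WT tumor arrays and 5.80 to 5.96 on the KO-labelled arrays. That of the B and plasma cell list was 7.92 to 7.95 and then 9.26 to 9.33. None of the 9 sorted myeloid genes was called at 2-fold between the tumor pools by limma, although Itgam and Csf3r had adjusted p of 7.2e-05 and 2.3e-05. Itgam stood at 11.90 and 11.95 and then at 11.21 and 11.30, and Csf3r at 12.19 and 12.24 and then at 13.05 and 13.12, while S100a8 read 15.13 to 15.18 on all 4 tumor arrays. The 9 myeloid genes were thus all far above background in both tumor pools, in which the epithelial genes differed.

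**Figure D5:**
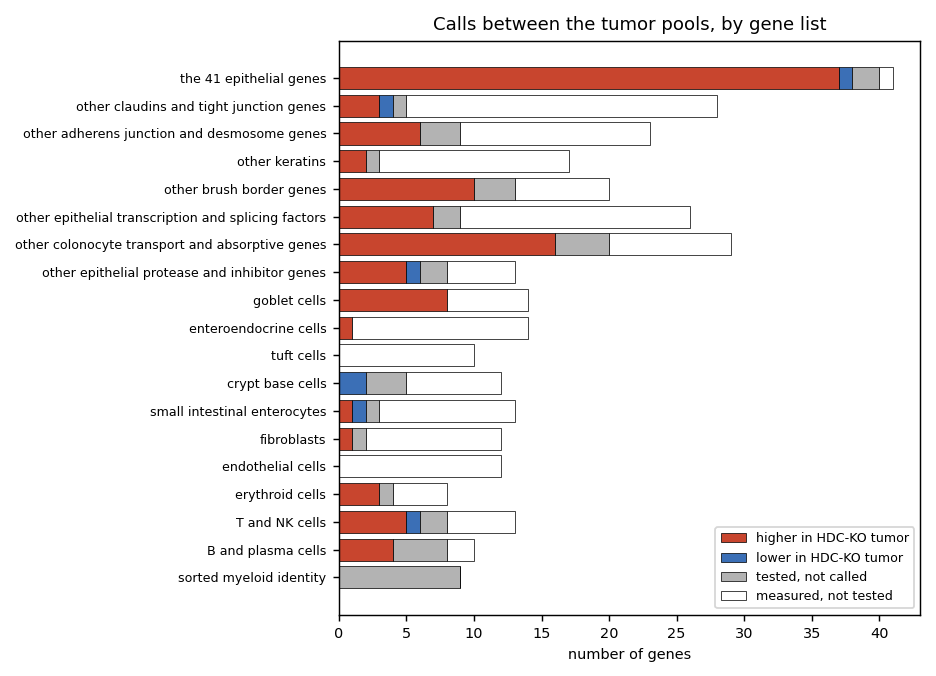
Number of genes (horizontal axis) per list that were called higher (red) or lower (blue) in the KO-labelled tumor pool than in the WT tumor pool, tested and not called (grey), or measured and not tested (white). The 41 genes hold 37 red and 1 blue, goblet cells 8 red of 8 tested, and the sorted myeloid genes 9 grey.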

How the data were processed

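RNA of sorted CD11b+Gr-1+ cells was measured on 8 Affymetrix arrays, 2 technical arrays for each of 4 groups, assigned by their titles. The authors deposited 45101 log2 expression values per array, 1 for each probe set, computed by GCRMA per the submitters' processing notes. GCRMA subtracts a background estimated from probe sequence, equalises the arrays and combines the probes of a set. The scale was read from the values. For the program, its version and detection calls, no entry is given in the sources used. Array data have no read depth, so the number of arrays limits the precision.

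Of the probe sets, 34958 carried 1 gene symbol in the platform annotation, 932 several and 9211 none, and only the first were used. They covered 18194 genes, each represented by its brightest probe set on average. The 8174 genes that reached log2 5 on 2 or more arrays were tested with limma 3.58.1 (lmFit, eBayes) in R 4.3.3 on all 8 arrays, with 4 residual and 2.14 prior degrees of freedom. P-values were adjusted over all of them (Benjamini-Hochberg). A call needed an adjusted p under 0.05 and a log2 difference of 1 or more in size. Errors are limma's moderated standard errors. A pool mean under log2 5 was raised to 5 for a fold, which is then a bound, and folds were left out when both pools were under it.

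The 41 genes and the other lists were chosen with earlier results of these data known. Hdc and any of the 41 may be named, and from every other list up to 3 called genes with the largest bounded tumor difference, or all where 5 or fewer were called or tested. Any further gene was picked once its values had been seen. Simulated data with 8174 genes were used to test the tumor fit, which recovered 99 of 100 genes given a log2 change of 1.5 and 100 of 100 given a change of 2, with 0 false calls. Only genes at log2 5 or more in the WT tumor pool were changed, and the noise was normal with the fit's own technical spread. The recovery therefore does not cover genes under background in that pool or differences between mice. Tables were made with Python 3.11.15, numpy 2.4.6 and pandas 2.3.3. The alternatives were other filters, quantile normalization, values raised to log2 5, centring on the median, other choices of probe set, another variance model, a block for replicate number, averaged arrays, only the groups compared, and each array left out.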

Additional observations from a re-analysis of the deposited data

Results flagged for a closer look

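For 39 of the 40 tested genes the difference between the genotypes in tumor departed from that in bone marrow, by the interaction term of limma (difference in tumor minus difference in bone marrow, log2, on 2 technical arrays per pool). Every value below depends on the label of the KO-labelled tumor pool. For the 16 genes tested only by being high in that pool, named with the first comparison, the values are listed and nothing is read from them. The same holds for Cldn3 and Sdcbp2, whose test also needed an array of that pool. Among the adhesion genes it was 2.06 for Epcam, 2.53 for Cdh1 and 4.00 for Cdh17. Among the tight junction genes it was 4.29 for Cldn3, 1.60 for Cldn4, 3.24 for Cldn7, 4.11 for Cldn23, 3.20 for Ocln and 2.28 for Tjp3. The keratins gave 2.26 for Krt8, 1.52 for Krt18, 2.61 for Krt19 and 3.02 for Krt20. The brush border genes gave 4.23 for Cdhr2, 4.26 for Cdhr5, 4.27 for Vil1, 2.68 for Myo1a and 4.36 for Myo15b.

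The enterocyte surface genes gave 2.43 for Lgals4, 4.56 for Tspan1, 3.03 for Tspan8, 4.51 for Ceacam20 and 2.33 for Lypd8. The transport and metabolic genes of enterocytes gave 1.34 for Slc26a3, 2.94 for Car1, 2.71 for Car4, 2.59 for Guca2a, 3.89 for Fabp2, 4.71 for Sdcbp2 and 5.72 for Sptssb. The protease genes gave 5.05 for Prss30, 3.38 for St14 and 3.65 for Spint1. Among the factors it was 1.59 for Cdx2, 2.64 for Elf3, 3.74 for Hnf4a and 2.58 for Esrp1. With values raised to log2 5 it was 0.47 for Cdx2, 0.85 for Myo1a and 0.94 for Krt18, and these 3 were not called. Cldn15 gave -1.37 and Dsp -3.73, the former because its tumor difference was the more negative and the latter because its marrow difference was the larger.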

How the results depend on the processing

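For HDC-KO against WT in tumor, 38 of 40 tested genes were called as reported, 32 of 34 with the filter at log2 7, 34 of 38 as the mean of probe sets, 39 of 41 with no filter, and 37 to 39 of 40 when 1 array was left out. In bone marrow it was 2 as reported, 1 with values raised to log2 5, where Cdh1 dropped out, and 2 to 3 with 1 array left out. For WT tumor against WT bone marrow it was 36 as reported, 18 with values raised to log2 5, since the other genes were under background in both pools or little above it in tumor, and 33 to 36 with 1 array left out. For KO-labelled tumor against HDC-KO bone marrow it was 39 as reported and 38 to 39 with 1 array left out, and for the interaction it was 39 throughout those and 36 with values raised to log2 5. No called difference of the 41 genes changed sign under any alternative, though some that were not called did. In the tumor comparison the calls of 5 genes changed under at least 1 alternative, which were Slc26a3, Krt18, Dsp, Cdx2 and Myo1a, as given above. For WT tumor against marrow, 18 genes lost a call somewhere, among them Cdx2, at 0.78 without WT tumor array 2, and Ocln, at 0.90 without WT bone marrow array 2. Median centring moved the median of all tested genes from -0.02 to -0.15 in KO-labelled tumor against HDC-KO bone marrow.

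Replicate numbers did not pair the arrays, since deviations of same-numbered arrays correlated at -0.015 to 0.058, and a fit with the replicate number as a block called the same numbers, 38, 2, 36, 39 and 39 in the order above. Readings under log2 5 carry no order between genes, and 2 technical arrays of 1 pool give no measure of the spread between mice.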

Other observations

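A few genes named for epithelium were higher in the marrow myeloid cells than in the tumor cells, as Cldn15 was, and were picked out here after their values were seen. Vill, a villin-like gene, stood at 7.72 and 7.66 on the WT bone marrow arrays and 7.77 and 7.86 on the HDC-KO bone marrow arrays, and at 3.01 to 3.16 on all 4 tumor arrays. It was at least 6.45-fold lower in WT tumor than in WT bone marrow and at least 7.02-fold lower in the KO-labelled comparison (limma, adjusted p = 1.7e-07 and 5.3e-08), with no call between the tumor pools. Vil1, which encodes villin itself, ran the other way in both. Lct, the lactase gene, stood at 6.13 and 6.20 in WT bone marrow, 7.07 and 7.04 in HDC-KO bone marrow, 4.86 and 5.22 in WT tumor and 2.01 and 2.14 in KO-labelled tumor. Cldn1 stood at 10.70 and 10.75, then at 10.98 and 11.03, then at 9.50 and 9.49 and then at 6.74 and 6.10 in the same order. For Lct and Cldn1, as for Cldn15, the KO-labelled tumor pool was the lowest of the 4.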
